A study of Drosophila melanogaster with 3 samples.

Results

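Rab genes encode small GTPases of the Ras superfamily that mark the membranes of the secretory and endocytic pathways. Each Rab is switched on by a guanine nucleotide exchange factor (GEF) and off by a GTPase-activating protein (GAP), carries a geranylgeranyl lipid added by a dedicated transferase, and in its active state recruits effectors such as motors and tethers. The binding of Cycle, the bHLH-PAS partner of the clock protein Clock, was examined here at these genes. Members were the protein-coding genes of the Drosophila melanogaster dm6 gene models whose symbol begins with Rab and a number, or with RabX and a number. The symbol rule found 36 of 13945 protein-coding genes on the 6 chromosome arms. Of these, 33 encode Rab GTPases and are the members described below. The other 3 encode regulators (Rab3GAP1, Rab3-GAP and Rab3-GEF) and are described with the regulators.

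Binding was measured by ChIP-seq with an antibody against GFP in whole animals at the white prepupa stage, when the puparium has only now formed and metamorphosis begins. All 3 samples are replicates of a single group from 1 transgenic line, in which Cycle carries GFP at its C terminus, with males and females pooled and the age not known. There is no second group, so no treatment, genotype or time was compared. The labels do not say which promoter drives the fusion or whether untagged Cycle was present, and the control alignment that the peaks were called against is not analysed here. Because whole animals were used, weak binding in many cells and strong binding in few cells cannot be told apart.

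The authors' list thresholded by the irreproducible discovery rate held 7227 peaks, and the pooled list of peaks and background regions from which it was taken held 29484. Each replicate had its own list. Read depth is unknown, since the lists hold no counts. Genes with a thresholded summit no more than 1 kb from a transcript start are called bound. Signal is the authors' value for a peak. Relative signal is a replicate's signal divided by the median of that replicate over the thresholded peaks it shares, so that 1 is a typical thresholded peak.

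Cycle was found at the starts of 15 of the 33 Rab genes, or 45.5% (exact binomial 95% interval 28.1 to 63.6%, counting error only), beside 28.6% of all protein-coding genes. The bound genes were Rab1, Rab18 and Rab30 of the endoplasmic reticulum and Golgi, Rab5, Rab11, Rab14, Rab21 and Rab35 of early and recycling endosomes, Rab7 and Rab39 of late endosomes, Rab8, Rab26 and Rab27 of secretion, and Rab40 and RabX1. These counts describe the members and were not tested as a set. By role, 3 of 5 genes of endoplasmic reticulum and Golgi traffic were bound, 5 of 6 of early and recycling endosomes, 2 of 4 of late endosomes and lysosome-related organelles, and 3 of 5 of secretion and synaptic vesicles. Of Rab19, Rab23 and Rab40, which are also conserved in mammals, 1 was bound. Among the 10 fly-specific or less studied members, RabX1 alone was bound, while RabX2, RabX4, RabX5, RabX6, Rab9D, Rab9Db, Rab9E, Rab9Fa and Rab9Fb were not. These counts depend on which replicates had to hold a peak. Without replicate 2 or without replicate 3, when a thresholded peak had to be among the 7227 strongest of both remaining replicates, Rab11, Rab18, Rab21, Rab27 and Rab35 were no longer called. Either step left 10 of 33 Rab genes bound, or 30.3%, beside 19.9% and 20.0% of all protein-coding genes. The early and recycling endosomal group then stood at 2 of 6, Rab5 and Rab14, against 5 of 6 with all replicates. The groups of endoplasmic reticulum and Golgi traffic and of secretion then stood at 2 of 5 each. Leaving out replicate 2 or 3 kept replicate 1 as a required list. Replicate 1 had no peak at the promoter summits of Rab11 and Rab18. Its best ranks within 1 kb of a start were 10040 at Rab27, 13369 at Rab35 and 10872 at Rab21, all beyond 7227. Without replicate 1, Rab21 alone was lost.

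**Figure D1:**
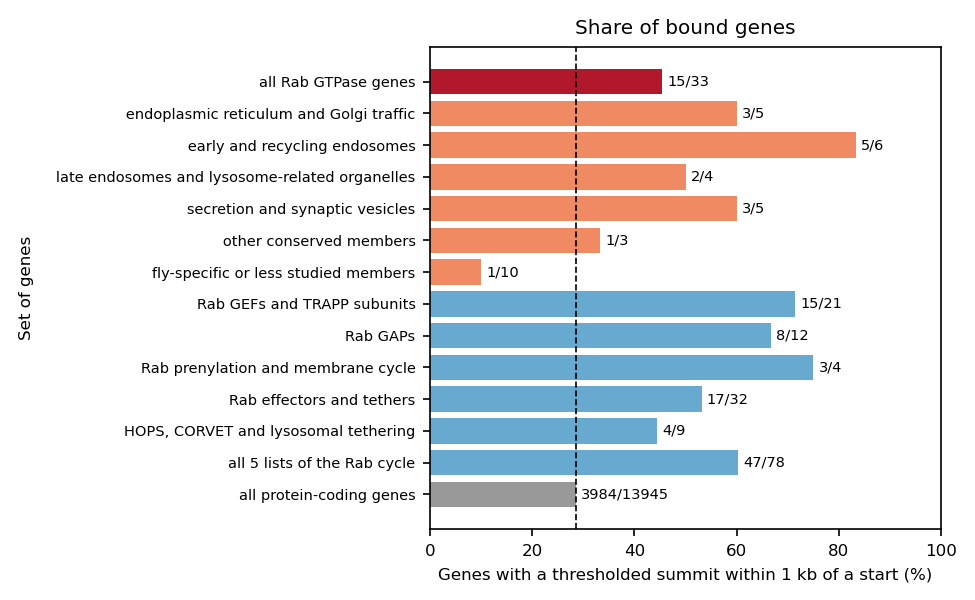
Share of genes with a thresholded Cycle summit within 1 kb of a start, in percent, with bound and total genes beside each bar. The dashed line marks all protein-coding genes (28.6%); Rab genes of early and recycling endosomes stand at 5 of 6, or 2 of 6 without replicate 2 or 3, and the fly-specific or less studied members at 1 of 10.

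The sequences under some of these summits show what the bound promoters hold. TATCGATA, the sequence bound by the factors DREF and BEAF-32, lay within 100 bp of a promoter summit of 6 of the 15 bound Rab genes, or 40%, beside 9.41% of all 3984 bound genes. CACGTG, the E-box of Clock and Cycle, lay at 1 of the 15, Rab5, beside 2.76% of all bound genes. The stretches are given from dm6 (RefSeq Release 6 sequence), on the plus strand from 5′ to 3′, cut where an annotated exon begins, with the motif in capitals. Rab5 is shown for its E-box and the other genes for TATCGATA.
Rab5 (chr2L:2363673-2363873): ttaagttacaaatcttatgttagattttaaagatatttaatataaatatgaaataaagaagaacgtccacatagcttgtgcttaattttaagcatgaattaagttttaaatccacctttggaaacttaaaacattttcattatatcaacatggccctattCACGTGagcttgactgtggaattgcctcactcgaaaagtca
Rab7 (chr3R:23992917-23993007): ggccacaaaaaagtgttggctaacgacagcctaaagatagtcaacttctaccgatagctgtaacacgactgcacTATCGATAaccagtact
Rab8 (chr3L:19871079-19871138): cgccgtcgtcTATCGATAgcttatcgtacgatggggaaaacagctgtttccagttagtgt
Rab27 (chrX:1476975-1477062): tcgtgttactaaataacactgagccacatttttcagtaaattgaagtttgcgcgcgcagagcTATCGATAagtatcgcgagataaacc
Rab30 (chr2L:7032607-7032720): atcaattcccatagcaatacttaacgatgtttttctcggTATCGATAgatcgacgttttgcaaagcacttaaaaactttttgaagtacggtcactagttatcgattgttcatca
Rab35 (chrX:20159887-20160087): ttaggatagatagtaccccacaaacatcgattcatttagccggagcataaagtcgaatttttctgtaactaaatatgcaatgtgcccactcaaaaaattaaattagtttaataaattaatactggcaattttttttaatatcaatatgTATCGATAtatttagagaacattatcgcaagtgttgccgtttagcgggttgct
Rab40 (chrX:12463113-12463273): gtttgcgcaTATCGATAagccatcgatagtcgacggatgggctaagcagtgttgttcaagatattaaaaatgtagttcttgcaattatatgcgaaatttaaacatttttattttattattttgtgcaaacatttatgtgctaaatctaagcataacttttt

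In the gene's own direction, the TATCGATA centre lay 13.5 bp upstream of a start at Rab7, 13.5 bp upstream at Rab40 and 14.5 bp upstream at Rab8. It lay 43.5 bp upstream at Rab30, 66.5 bp upstream at Rab27 and 166.5 bp upstream at Rab35. Its distance from the summit ran from 10.5 bp at Rab30 to 51.5 bp at Rab35, and it was on the start side of the summit at all of these genes but Rab35. At each of these genes except Rab35 the motif lies between the start of the Rab gene and that of a divergent neighbour, namely Epp at Rab7, Usp32 at Rab8, mei-38 at Rab27, Caper at Rab30 and CG42258 at Rab40.

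**Figure D2:**
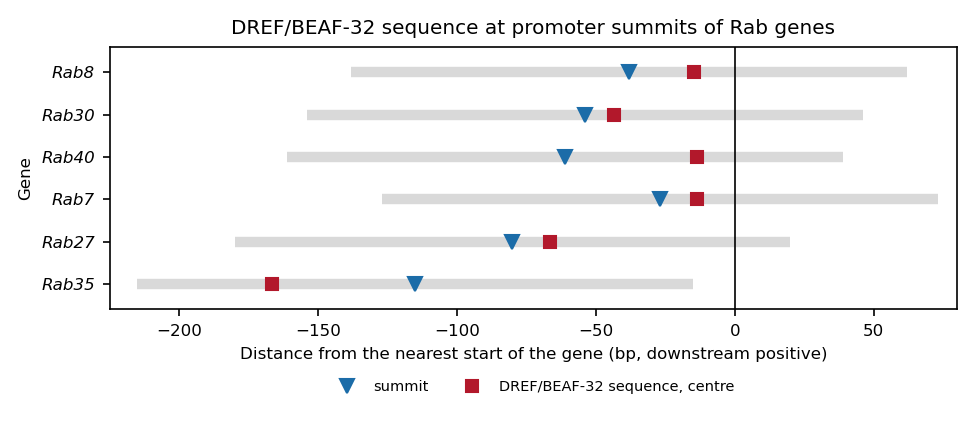
Position of the summit (triangles) and of the centre of TATCGATA, the DREF and BEAF-32 sequence (squares), in bp from the nearest start of each gene, negative values upstream. Grey bars are the 100 bp searched to each side of the summit; at 5 of the 6 genes the motif lies between summit and start, and at Rab35 it lies beyond the summit.

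Over all 23 promoter summits of the bound Rab genes, TATCGATA was present at 6, or 26.1%, beside 6.41% of all promoter summits, 3.32% of all thresholded summits and 6.43% of windows of the same length centred on all 19607 starts. CACGTG was present at 1 of the 23, beside 2.05% of all promoter summits and 2.79% of these windows at starts. Both strands were searched. Any E-box (CANNTG, which includes CACGTG) was present at 12 of the 23, or 52.2%, beside 60.2% of all promoter summits and 63.9% of the windows at starts. The palindrome GTGCAC, the core promoter sequence GGTCACAC bound by M1BP, and GAGAGA, the site of GAGA factor, were each found at none of the 23, a count that allows up to 13.0%. Their shares of all promoter summits were 6.30%, 3.52% and 7.97%, all below that limit, and their shares of the windows at starts were 3.89%, 5.68% and 9.75%. The windows at the 53 starts of the 33 Rab genes were searched in the same way. There GGTCACAC was present at 5, or 9.43%, GAGAGA at 2, or 3.77%, and GTGCAC at none. Any E-box was present at 37 of these windows, or 69.8%, CACGTG at 1, or 1.89%, and TATCGATA at 12, or 22.6%.

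TATCGATA was also present at starts of Rab genes that were not bound. Within 100 bp of a start it was present at 11 of the 33 genes, or 33.3%, beside 8.49% of all protein-coding genes. These were 7 of the 15 bound genes and 4 of the 18 others. The bound ones were the 6 shown for this motif and Rab14, where it lay 77.5 bp upstream of a start and 638 bp from the nearest thresholded summit. At Rab35 the copy at the start, 8.5 bp upstream, was a different one from the copy printed. The genes not bound were Rab2 and Rab6, with the motif 48.5 bp upstream at both, RabX6, with 45.5 bp, and Rab19, with copies 16.5 and 43.5 bp upstream of different starts. At these 4 genes the nearest thresholded summit was 2788 bp (Rab19) to 18774 bp (Rab2) from the motif. Of all genes with the motif at a start, 42.7% were bound.

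**Figure D3:**
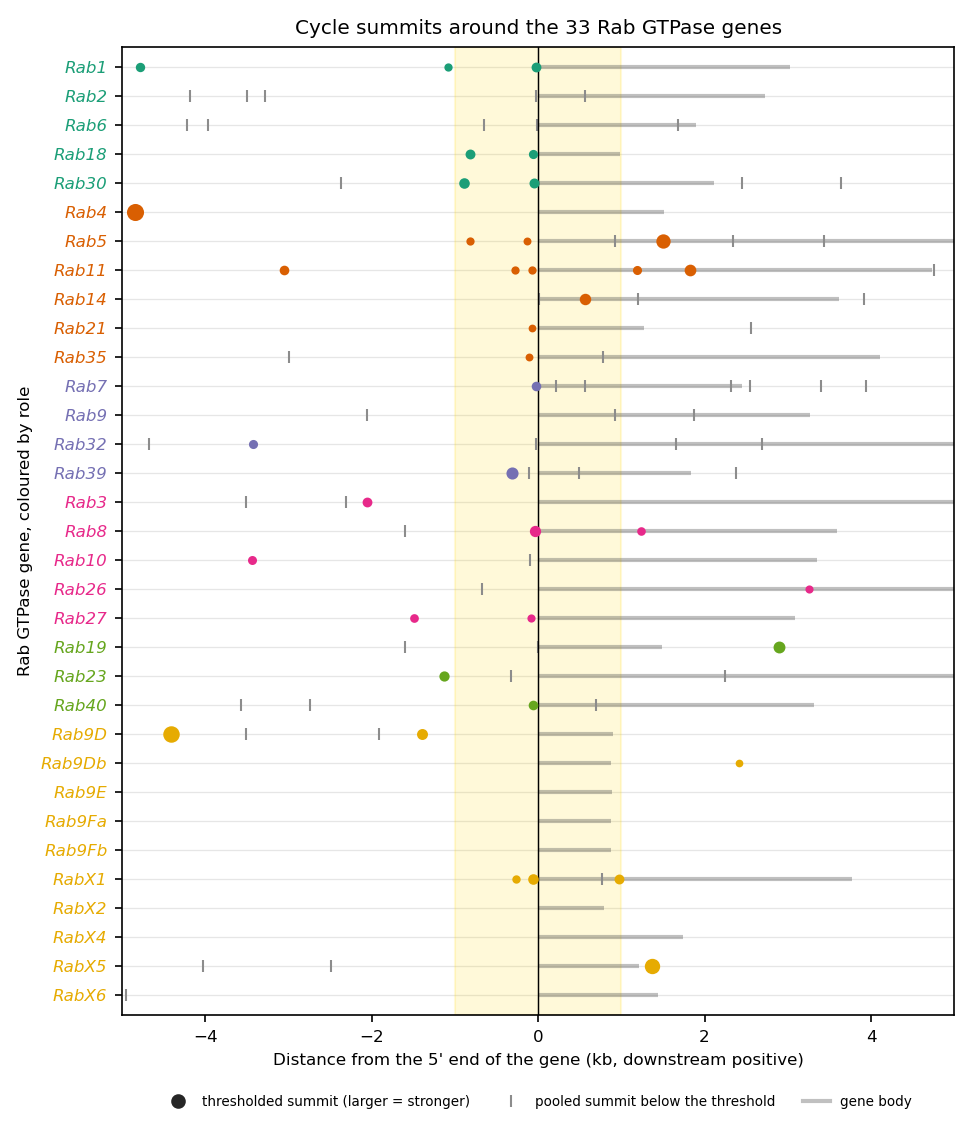
Cycle summits within 5 kb of the 5′ end of each Rab gene, grouped and coloured by role, with distance in kb and downstream positive. Dots are thresholded summits (larger for higher signal), ticks are pooled summits below the threshold, grey lines are gene bodies, and the shaded band is 1 kb to each side; 11 genes have neither mark within 1 kb of any start.

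The strongest promoter summit of the Rab genes lay at an endosomal member. Rab5 (2L, 2359142 to 2365273), whose product drives the fusion of early endosomes, had 3 summits within 1 kb of its 6 starts. The strongest, at position 2363773 in an intron and 269 bp upstream of an internal start, had relative signals of 1.98, 2.65 and 3.62 in replicates 1, 2 and 3, a mean of 2.75 ± 0.827 (SD, n = 3). All replicates were thus above a typical peak, and it ranked 762 of 7227. This is the summit with CACGTG, 62.5 bp away. The other summits of Rab5, 133 and 819 bp upstream, lay nearer to the divergent gene Axud1 and averaged 0.578 ± 0.132 and 0.613 ± 0.136 (SD, n = 3).

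Rab14 (2L, 14355145 to 14358764), another endosomal Rab, had an intronic summit 560 bp downstream of a start with relative signals of 1.57, 1.20 and 1.33, a mean of 1.37 ± 0.190 (SD, n = 3). It was the sole bound Rab gene whose strongest promoter summit lay downstream of the nearest start. At Rab5 and Rab26 that summit also lay inside the gene, but upstream of an internal start. Rab11 (3R, 21111408 to 21116146), the Rab of recycling endosomes, had 2 weak promoter summits, 70 and 274 bp upstream. Replicate 1 had no peak at either, and a single peak of replicate 2, at 0.701, served for both, while replicate 3 gave 0.638 and 0.775. Its strongest summit lay deeper, in an intron 1831 bp downstream of the start, with relative signals of 1.36, 1.72 and 1.26, a mean of 1.45 ± 0.240 (SD, n = 3). A further intronic summit 1184 bp downstream averaged 0.664 ± 0.214 (SD, n = 3). The gene body thus had a peak in every replicate where the start did not.

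Rab21 (X, 23012140 to 23013409), which acts in endocytic traffic, and Rab35 (X, 20155766 to 20159872), a Rab of endocytic recycling, were bound weakly. Rab35 had relative signals of 0.280, 0.652 and 0.647 at a summit upstream of its start, a mean of 0.526 ± 0.213 (SD, n = 3). Rab21 had 0.321, 0.573 and 0.530 at a summit 69 bp upstream and 17 bp from the start of Coa7, a mean of 0.474 ± 0.135 (SD, n = 3). Its signal of 112.8 ranked 7072 and was the lowest of any bound Rab gene. At both genes replicate 1 was the lowest. Rab4 (2R, 17573462 to 17574979), the Rab of fast endosomal recycling, was the only gene of this group not bound. Its nearest thresholded summit lay 4844 bp from its start and 114 bp from that of POSH, and it was strong, with a signal of 1214.6.

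Of the Rab genes of the endoplasmic reticulum and Golgi, the bound ones had summits close to the start. Rab1 (3R, 21266029 to 21269060), required for transport from the endoplasmic reticulum to the Golgi, had its summit 26 bp upstream with relative signals of 0.560, 1.04 and 0.793, a mean of 0.798 ± 0.240 (SD, n = 3). Rab30 (2L, 7030493 to 7032606), a Golgi Rab in mammals, had a summit 54 bp upstream with relative signals of 0.552, 1.21 and 0.956, a mean of 0.906 ± 0.332 (SD, n = 3). A second one, 887 bp upstream within the divergent splicing factor gene Caper, averaged 1.04 ± 0.269 (SD, n = 3). In both genes replicate 2 was the highest of the replicates at the summit next to the start.

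Rab18 (X, 5670827 to 5671812), linked to lipid droplets and the endoplasmic reticulum, had summits 56 and 823 bp upstream, and replicate 1 had no peak at either. The nearer had relative signals of 0.847 and 0.632 in replicates 2 and 3, and the farther, which lay in an intron of the ribosomal protein gene RpL35 and 99 bp from its start, had 1.26 and 0.492. Rab2 and Rab6, which act at the Golgi, were not bound. Their best pooled summits within 1 kb ranked 8138 and 10110 of 29484, and Rab2 had none in replicate 1.

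Among late endosomal members, Rab39 (X, 7734923 to 7736756) had the second strongest promoter summit of the Rab genes. It lay 312 bp upstream, in a 5′ UTR exon of Pdp and 40 bp from the start of that pyruvate dehydrogenase phosphatase gene. Its relative signals were 1.27, 1.86 and 1.73, a mean of 1.62 ± 0.308 (SD, n = 3), so every replicate exceeded a typical peak. Rab7 (3R, 23993008 to 23995452), which directs late endosomes to lysosomes, had its summit 27 bp upstream, between its start and that of Epp. The relative signals were 0.486, 1.09 and 0.869, a mean of 0.813 ± 0.303 (SD, n = 3). Rab9, of traffic between late endosomes and the Golgi, and Rab32, of eye pigment granules, were not bound and had best pooled ranks of 11158 and 15645.

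Among secretory members, Rab8 (3L, 19867488 to 19871078), a Rab of exocytosis, had its main summit 38 bp upstream and 23 bp from the divergent gene Usp32. Replicates 2 and 3 gave relative signals of 1.56 and 1.23 there, and replicate 1 had no peak. A weaker intronic summit 282 bp upstream of an internal start had 0.493, 0.687 and 0.586, a mean of 0.589 ± 0.0969 (SD, n = 3). Rab26 (3L, 21318774 to 21335027), a Rab of synaptic vesicles and secretory granules, was bound in an intron 349 bp upstream of an internal start. Its values of 0.509, 0.627 and 0.612 (mean 0.583 ± 0.0642, SD, n = 3) were all below a typical peak.

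Rab27 (X, 1473884 to 1476974), a Rab of regulated secretion, had 0.341, 0.679 and 0.695 (mean 0.572 ± 0.200, SD, n = 3) at a summit 80 bp upstream and 9 bp from the start of mei-38. Rab3, the synaptic vesicle Rab, and Rab10, of polarised secretion, were not bound. Rab3 had no summit within 1 kb in the pooled list or in any replicate list. Rab10 had a pooled summit of rank 7952, the closest to the threshold of any member not bound.

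Rab40 (X, 12459796 to 12463112), which carries a SOCS box for ubiquitin ligase assembly, had relative signals of 0.262, 1.02 and 0.952 at a summit 61 bp upstream, a mean of 0.744 ± 0.419 (SD, n = 3). Replicate 1 stood apart from the others there. RabX1 (2R, 23519839 to 23523613) had 3 promoter summits. The strongest, 62 bp upstream and 181 bp from the divergent gene mi, had 1.33, 1.25 and 0.803, a mean of 1.13 ± 0.285 (SD, n = 3), with replicate 3 the lowest. The other summits, 264 bp upstream and 968 bp downstream, averaged 0.807 ± 0.454 and 0.881 ± 0.0861 (SD, n = 3). The 1.33 of replicate 1 is counted for both upstream summits, since a single peak covers them.

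**Figure D4:**
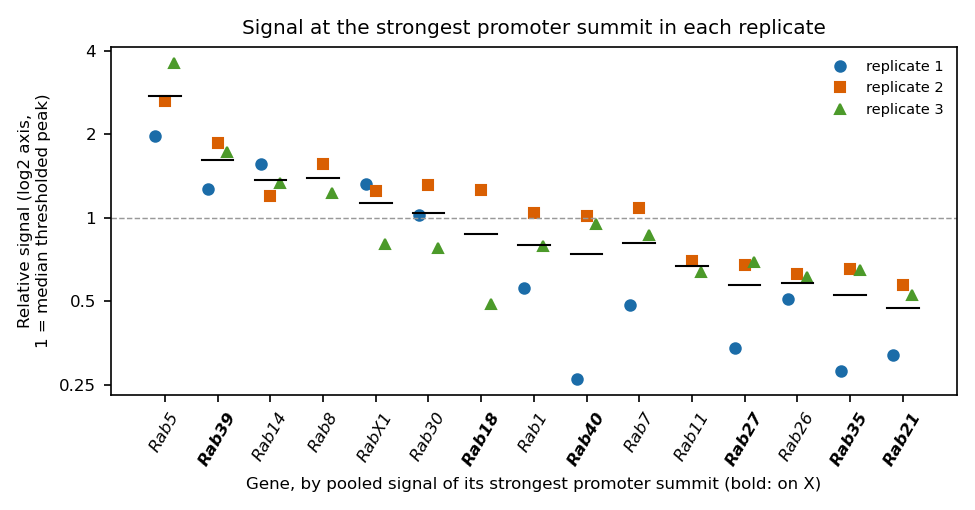
Relative signal at the strongest promoter summit of each bound Rab gene in replicates 1, 2 and 3 (log2 axis, 1 is the median thresholded peak of that replicate), with the mean as a line and genes on X in bold. Rab5, Rab14 and Rab39 lie above 1 in all replicates. Replicate 1 is the lowest at 9 genes on X and the autosomes. At Rab40 (0.262) a stronger overlapping replicate 1 peak, farther by summit, was not taken. Replicate 1 has no point at Rab8, Rab18 and Rab11.

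Replicate 1 was weaker than the others at many of these promoters. It had no peak at the strongest promoter summit of 3 of the 15 genes and was the lowest of the replicates at 9 of the remaining 12. Over all promoter summits it had no peak at 14.1% and was the lowest at 39.7% of the 2923 with a peak in every replicate. On X it was the lowest at 5 of 5 such Rab summits, beside 47.2% of all such promoter summits on X. On the autosomes it was the lowest at 4 of 7, beside 38.0%. The counts of 9 and of 5 include Rab40, whose replicate 1 value depended on which overlapping peak was taken. The part of replicate 1 in the strength of the X-linked Rab genes was not tested.

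Bound Rab promoters were of moderate strength. The strongest promoter summit of the 15 genes had a median signal of 191.7, beside 248.6 over all bound genes, and 4 of the 15 were above the median of all bound genes. Counting the 3613 strongest thresholded peaks alone, 6 of the 33 genes were bound, or 18.2%, beside 16.8% of all genes. These were Rab5, Rab39, Rab14, Rab8, RabX1 and Rab30. The share of Rab genes bound by these strong peaks was thus close to the background, while the other 9 bound genes had weaker promoter peaks alone.

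**Figure D5:**
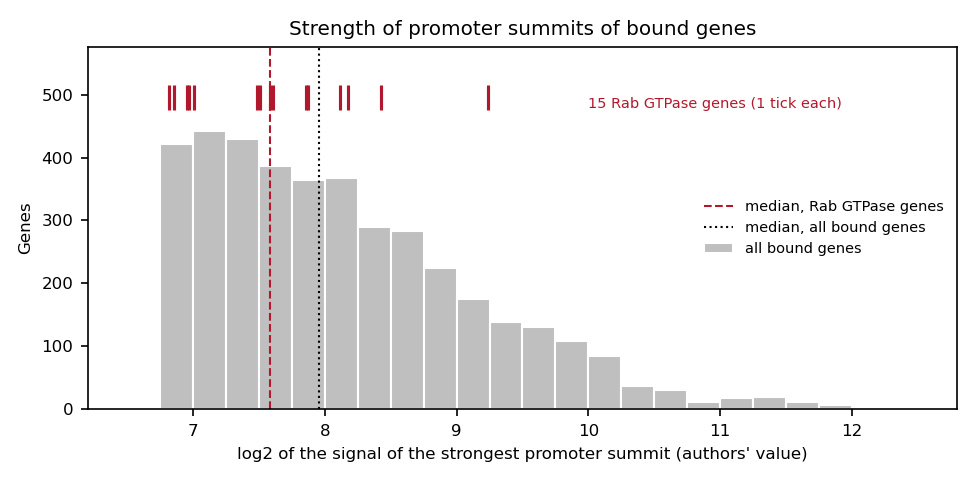
Signal of the strongest promoter summit, on a log2 axis, for the 15 bound Rab genes (red ticks) and for all 3984 bound genes (grey bars, number of genes per bin). The median of the Rab genes (dashed, 191.7) is below that of all bound genes (dotted, 248.6), and Rab5 is the rightmost tick.

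The strongest promoter summits of the bound Rab genes lay near a start. The strongest promoter summit lay a median of 80 bp from the nearest start, beside 174 bp over all bound genes, and within 100 bp at 8 of 15 genes, or 53.3%, beside 28.7%. It lay upstream of the nearest start at 14 of the 15. The share of all bound genes was not computed for that count, so it cannot be read as high or low. At 11 of the 15 it was also within 1 kb of a start of another protein-coding gene, or 73.3%, beside 60.7% of all bound genes, and it was nearer to the Rab start at 5 of these 11. Binding at such a place cannot be assigned to either gene. The neighbours were Axud1 at Rab5, Caper at Rab30, l(2)34Fd at Rab14, mi at RabX1, Usp32 at Rab8, AP-2sigma (a clathrin adaptor subunit gene) at Rab1, Epp at Rab7, mei-38 at Rab27, RpL35 at Rab18, Pdp at Rab39, CG42258 at Rab40 and Coa7 at Rab21. At Rab5 it was the weaker summits that were shared.

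Gene structure gives the background for these counts. Of the 18 Rab genes with an opposite-strand start within 1 kb, 12 were bound, or 66.7%, beside 47.1% of all such genes. Of the 15 without, 3 were bound, Rab1, Rab11 and Rab35, or 20.0%, beside 17.7%. Of the 9 Rab genes with 2 or more starts, 7 were bound (77.8%, beside 46.0% of all such genes), and of the 24 with 1 start, 8 were (33.3%, beside 22.3%). The bound genes had a median length of 3317 bp and the others of 1504 bp. Among genes shorter than 1 kb, 1 of 7 Rab genes was bound, or 14.3%, beside 13.9% of all such genes. Among genes of 1 to 4 kb it was 10 of 19 (52.6%, beside 27.1%), and among genes of 4 kb or more 4 of 7 (57.1%, beside 40.5%). On X 6 of 13 members were bound (46.2%, beside 30.3%), and on the autosomes 9 of 20 (45.0%, beside 28.2%). Without replicate 2 or without replicate 3, 2 of 13 members were bound on X (15.4%, beside 18.4% and 18.9% of all genes on X) and 8 of 20 on the autosomes (40.0%, beside 20.1% and 20.2%). Both steps kept replicate 1 as a required list. The same steps left 4 of 24 Rab genes with 1 start, 1 of 15 without an opposite-strand start, 0 of 7 shorter than 1 kb and 2 of 7 of 4 kb or more. All such genes then stood at 14.8% and 14.7%, 12.7% and 12.8%, 9.16% and 9.38%, and 30.0% and 30.2%. The other classes moved less. Of Rab genes with 2 or more starts, 6 of 9 stayed bound (66.7%, beside 34.0% and 34.7%). With an opposite-strand start it was 9 of 18 (50%, beside 32.1% and 32.4%). Among genes of 1 to 4 kb it was 8 of 19 (42.1%, beside 17.9% and 18.0%).

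A thresholded summit in the gene body was less common, at 6 of 33 genes, or 18.2%, beside 14.9% of all protein-coding genes. These were Rab5, Rab8, Rab11, Rab14, Rab26 and RabX1, and all their body summits lay in introns. The pooled list, which includes background regions, had a summit within 1 kb of a start for 22 of the 33, or 66.7%, beside 55.4%. All 3 replicate lists had such a summit for 17 members, or 51.5%, beside 32.5% of all genes, and none of them had a summit for 8, or 24.2%, beside 25.3%.

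The 18 members not bound fell into those with weaker peaks and those with none. Rab2, Rab6, Rab9, Rab10, Rab19, Rab23 and Rab32 had pooled summits below the threshold, with best ranks from 7952 (Rab10) to 15645 (Rab32). Rab3, Rab4 and the 9 fly-specific or less studied genes other than RabX1 had none. Of these 11, Rab4, RabX6 and Rab9Db had a summit within 1 kb in a single replicate list each, of rank 23760 in replicate 2, 18370 in replicate 3 and 17407 in replicate 1. Some had thresholded summits just outside the window. Rab23 had a summit 1130 bp from its start, within an intron of the GAP gene plx. RabX5 had a summit 1367 bp from its start with a signal of 786.3, but it was 87 bp from the start of RpL23A. Rab9D had a summit 1395 bp upstream with a signal of 255.5, and there Rab9D was the nearest gene.

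4 of the 5 X-linked Rab9 relatives are near-identical copies, which limits what can be said of them. Coding sequences of Rab9D, Rab9Db, Rab9E and Rab9Fa were 98.1 to 99.2% identical, and each was 86.0 to 86.5% identical to RabX2, while Rab9Fb was 71.7 to 72.4% identical to them. Within 1 kb of the 5′ end, 53.5% of 36-base words at Rab9D occurred a single time in the genome, 47.8% at Rab9Db, 48.1% at Rab9E and 45.0% at Rab9Fa. The share was 98.1% at Rab9Fb and 85.5% at RabX2, and 100% at 26 of the 28 members outside the Rab9 copies. How reads with more than 1 match were handled is not given in the sources used here, so the absence of peaks at these 4 genes is uncertain. Rab9Fb, with nearly all its words unique, also had no summit in any list.

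The genes that regulate Rab proteins or act with them were counted in the same way. Of 78 regulators and effectors in 5 lists, 47 were bound, or 60.3%, beside 28.6% of all protein-coding genes. Exchange factors and subunits of the TRAPP exchange complexes were bound in 15 of 21 cases, GAPs in 8 of 12, genes of prenylation and membrane cycling in 3 of 4, effectors and tethers in 17 of 32, and genes of HOPS, CORVET and other lysosomal tethering in 4 of 9. The lists were chosen with results of these data known, and no difference between lists was tested. Without replicates 1, 2 and 3 in turn, 41, 33 and 34 of the 78 were bound (52.6%, 42.3% and 43.6%). All protein-coding genes then stood at 24.2%, 19.9% and 20.0%. Exchange factors and TRAPP subunits fell to 9 of 21 without replicate 2 or 3. Effectors and tethers fell to 11 of 32 without replicate 2 and 12 of 32 without replicate 3. GAPs stayed at 8 of 12 in every step.

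Several of these genes had stronger summits than the Rab genes. Of the 15 named here for their signal, all but spri and RabGGTa had the summit within 1 kb of a start of another gene, so the binding cannot be assigned to either. Vps33B, an endosomal tethering gene, had relative signals of 7.51, 6.33 and 5.07 at a summit 228 bp upstream and shared with Fur1, a mean of 6.30 ± 1.22 (SD, n = 3). Rbsn-5, the effector Rabenosyn of Rab5, shared its summit with PAPLA1 and averaged 5.04 ± 1.03 (SD, n = 3), with 4.03 in the lowest and 6.09 in the highest replicate. The lowest replicate value of either gene exceeded the highest of any Rab promoter summit, 3.62 at Rab5. In the list of exchange factors and TRAPP subunits, spri, a Rab5 exchange factor homologue, averaged 4.84 ± 0.276, SIDL 4.38 ± 0.305 and Mon1, of the Rab7 exchange factor, 3.31 ± 0.874 (SD, n = 3). The summit of SIDL was shared with CG12241 and that of Mon1 with mRpS2.

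Among GAPs, Rab3GAP1 had 3.29, 3.06 and 2.31 at a summit 140 bp upstream and 113 bp from the start of CG14352, a mean of 2.88 ± 0.512 (SD, n = 3). Of the 3 regulators within the symbol rule it alone was bound, and Rab3-GAP and Rab3-GEF had their nearest thresholded summits 2748 and 3762 bp away. The GAP genes sky, which acts on Rab35 at synapses, and GAPcenA averaged 1.42 ± 0.220 and 1.33 ± 0.265 (SD, n = 3), at summits shared with CG43739 and CG7182. Both subunit genes of the Rab geranylgeranyl transferase were bound, RabGGTb at 1.72 ± 0.172, shared with Sbat and Prx6a, and RabGGTa at 1.06 ± 0.0882 (SD, n = 3). The escort protein gene Rep, sharing its summit with Oseg6, had 1.45 and 0.768 in replicates 2 and 3 and no peak in replicate 1. Gdi, which extracts Rabs from membranes, was the unbound gene of that list, with the nearest thresholded summit 1329 bp away.

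Of the other effectors, didum, the myosin V gene, averaged 2.94 ± 0.364 and Sec6, an exocyst subunit gene, 1.93 ± 0.641 (SD, n = 3), at summits shared with dpa and Atg7. In the lysosomal tether list, car averaged 1.09 ± 0.260 and Vps39 0.718 ± 0.162 (SD, n = 3), at summits shared with Grip84 and eIF1A. The genes dor, lt, Vps11, Vps16A and Vps16B of the same list were not bound, with nearest thresholded summits from 4314 bp (dor) to 249629 bp (lt) away.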

How the data were processed

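ChIP-seq peak lists of 3 replicates, a pooled list and a thresholded list were used on dm6, in the narrowPeak format, per the texts that accompany the files. The peak signal is the authors' deposited value against a control alignment. Neither the aligner nor the peak caller is named in the sources used here. The lists hold no read counts, so depth and its precision are unknown.

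Gene models were those of Ensembl release 115 (build 6.54), with 19607 protein-coding transcript starts, and sequence was RefSeq Release 6. Peaks ended inside the arms of that sequence. The summit is the deposited offset added to the peak start. A replicate's value for a thresholded peak came from the overlapping peak (at least 1 bp) nearest by summit. No peak had the same summit and signal in different replicates. Replicates are labelled biological, and SD covers the spread between them.

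Every gene of the symbol rule was named, with up to 3 bound genes of highest signal per list and the genes sharing a Rab summit. Genes named beyond this, among them the unbound list members, were chosen after their values were seen. Members and lists were chosen with earlier results of these data known. Of the list entries, 4 had no match in the annotation and 1 named the same gene as another entry. Alternatives varied the window (500 bp, 5 kb), starts, peak set, replicates and distance of motifs from the summit (50 and 200 bp). Assignment and matching were tested on simulated data. Software was Python 3.11.15, numpy 2.4.6, scipy 1.17.1, Biopython 1.88 and matplotlib 3.10.9. The dm3 lists were not used.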

Additional observations from a re-analysis of the deposited data

How the results depend on the processing

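The count of 15 bound Rab genes became 24 with a window of 5 kb, 6 with summits in the gene body and 6 with the 3613 strongest peaks, while other protein-coding genes stood at 50.7%, 14.9% and 16.8%. The share of other genes, 28.5% in the main count, was 24.7% with a window of 500 bp, 26.5% with the 5′ end of each gene alone and 55.4% with the pooled list, where Rab genes numbered 14, 14 and 22. Leaving out a replicate gave 10 to 14 Rab genes and 19.8 to 24.2% of other genes. Reading the symbol rule literally gave 16 of 36 genes. With the 3613 strongest peaks, 26 of the 78 regulators and effectors were bound, or 33.3%, beside 16.8% of all genes. With the same peaks 3 Rab genes had a summit in the body. The share of all genes was not computed for that count, so it cannot be read as high or low. Rab genes with CACGTG at a promoter summit numbered 0 within 50 bp and 2 within 200 bp, and those with TATCGATA 4 and 6, beside 0.879%, 7.05%, 4.79% and 15.6% of all bound genes in the same order. Of the 60 recomputed relative signals, 1 moved by over 1.5 times, Rab18 at its strongest promoter summit, with 0.492 without replicate 2 against 0.878 over the replicates that had a peak. A mean over fewer of the same replicates cannot move by more than their SD, so the others that left out a replicate say little about stability. The 15 that instead required a replicate summit within 100 bp of the thresholded summit moved by at most 1.15 times, at Rab21. Of 30 recomputed counts for single lists 7 moved by over 1.5 times. Each was under a setting that keeps only part of the thresholded peaks, which can only lower a count. No paired analysis was possible because there is a single group. Without read counts, weak peaks near the threshold cannot be given an error from depth.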
